A study of Mus musculus with 12 samples.

Results

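The genes of 10 costimulatory receptors were followed across the 4 culture conditions of an experiment on OT-I cells: the TNF receptor family members Tnfrsf4, Tnfrsf9, Tnfrsf18, Tnfrsf8, Tnfrsf1b, Tnfrsf25, Tnfrsf14 and Cd27, and the CD28 family members Cd28 and Icos. They were picked by gene symbol as members of these families, with earlier results of the same data known, and are 10 of the 39463 genes with a symbol on the array. Each symbol had 1 row in the deposited table. OT-I cells are CD8 T cells of transgenic mice that carry a single T cell receptor for an ovalbumin peptide bound to a class I molecule. Of the peptides used, N4 triggers that receptor strongly, and Y3, a variant of it, does so less well. Splenocytes were cultured for 4 days as Y3-primed cells with corticosteroid, Y3-primed cells without it, N4-primed cells with corticosteroid, and N4-primed cells without it, with 3 arrays in each group. All groups were peptide-primed, so no resting cells enter any comparison, and the RNA is that of the culture, for which no sort was stated. Which corticosteroid was added, and at what dose, is not given in the sources used here. Replicates 1 to 3 are called biological in the labels, with no word on what separates them (mice or cultures), so p-values measure the spread between these arrays.

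T cell costimulatory receptors add to the signal of the T cell receptor. Those of the TNF receptor family are engaged by trimeric ligands, mostly on antigen-presenting cells, and recruit TRAF adaptors that lead to NF-kappaB activity and survival proteins of the BCL2 family. Several of them are scarce on resting T cells and appear after stimulation (OX40, 4-1BB, CD30), whereas CD27 and CD28 are already present on resting cells. CD28 and its relative ICOS act through phosphoinositide 3-kinase and related signals when bound by CD80 or CD86 and by ICOS ligand.

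Of the 10 genes, 7 lie on mouse chromosome 4, where in RefSeq's order of coding genes Tnfrsf4 and Tnfrsf18 are direct neighbours, as are Tnfrsf1b and Tnfrsf8. On chromosome 1, Ctla4 alone separates Cd28 and Icos. RefSeq start-site windows, from 250 bases before to 50 bases after the start (build GRCm38.p6), were found for 8 of the 10 genes. They were searched on both strands for TGANTCA (the AP-1 site), a form of the NF-kappaB site (GGG, any 2 bases, TT, any 1 base, CC), TGGAAA (the core of the NFAT site) and AGAACA (a half-site of the glucocorticoid receptor). In all, 4 windows are shown, those of 3 receptors with lower and of 1 with higher signal in Y3-primed cells, and capitals mark the motif matches. The 3 lower receptors shown hold matches, whereas Tnfrsf18, also lower and not shown, holds none. No match of one motif overlapped a match of another.
Tnfrsf9, second RefSeq start, chr4:150927749-150928048, plus strand: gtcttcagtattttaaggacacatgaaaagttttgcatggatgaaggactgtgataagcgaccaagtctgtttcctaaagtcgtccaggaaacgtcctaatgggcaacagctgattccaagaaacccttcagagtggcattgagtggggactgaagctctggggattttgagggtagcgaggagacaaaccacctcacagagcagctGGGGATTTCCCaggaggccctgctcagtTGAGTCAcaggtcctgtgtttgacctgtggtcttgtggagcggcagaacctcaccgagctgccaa
Tnfrsf8, chr4:145315115-145315414, minus strand: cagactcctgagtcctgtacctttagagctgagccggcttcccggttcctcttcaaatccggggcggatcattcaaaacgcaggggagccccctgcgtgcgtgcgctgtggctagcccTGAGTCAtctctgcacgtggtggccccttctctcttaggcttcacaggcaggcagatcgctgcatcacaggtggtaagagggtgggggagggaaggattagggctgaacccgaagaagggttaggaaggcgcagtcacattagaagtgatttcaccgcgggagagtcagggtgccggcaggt
Tnfrsf4, chr4:156013445-156013744, plus strand: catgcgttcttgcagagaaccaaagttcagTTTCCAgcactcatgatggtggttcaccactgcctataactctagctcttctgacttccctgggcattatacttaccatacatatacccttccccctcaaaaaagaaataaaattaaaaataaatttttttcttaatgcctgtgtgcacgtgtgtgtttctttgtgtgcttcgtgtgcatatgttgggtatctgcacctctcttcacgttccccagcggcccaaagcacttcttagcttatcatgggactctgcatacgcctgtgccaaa
Cd27, chr6:125236978-125237277, minus strand: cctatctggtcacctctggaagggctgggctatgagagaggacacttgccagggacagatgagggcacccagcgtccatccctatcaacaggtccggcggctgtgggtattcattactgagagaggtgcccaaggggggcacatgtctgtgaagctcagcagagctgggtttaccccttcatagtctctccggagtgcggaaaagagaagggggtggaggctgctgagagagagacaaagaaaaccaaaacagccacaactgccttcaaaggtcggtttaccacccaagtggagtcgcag
The Tnfrsf9 window holds 2 NF-kappaB matches that overlap each other, beginning at -43 and -42 from the start, and an AP-1 match at -15. The Tnfrsf8 window holds an AP-1 match at -132. The Tnfrsf4 window holds an NFAT match in reverse at -220, and the window of the other Tnfrsf9 start, not shown, holds one at -221. Tnfrsf25, which was below background here, has an NF-kappaB match and a glucocorticoid half-site in one of its windows. No match was found in the windows of Cd27, Tnfrsf18, Tnfrsf14 or Tnfrsf1b. Of all 32851 mouse windows of this length, 7.81% hold the AP-1 letters, 4.79% the NF-kappaB letters, 21.4% the NFAT letters and 19.0% the glucocorticoid half-site. These matches are letters in a window and were not measured as bound sites.

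Values are log2 of the deposited array signal. The brightest of 23 background controls, the background line used here, lay between 5.41 and 6.40 on the 12 arrays, and between 14275 and 17516 genes per array exceeded it. Negative control probes reached further: their 95th percentile lay between 8.75 and 9.68. Of the 10 receptors, 8 exceeded the line on all 12 arrays, Tnfrsf8 on 11 and Tnfrsf25 on none. Of 8 CD8 T cell markers all exceeded it on all 12 arrays, whereas all 7 dendritic cell and all 3 erythroid markers were below it on every array, and 8 of 10 B cell markers were. Of the markers of B cells, NK cells, macrophages and neutrophils, 1 of each list (Cd79b, Fcer1g, Cd68 and Ly6g) exceeded it on at least 3 arrays. The plot of signals by group shows all values described next.

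**Figure D1:**
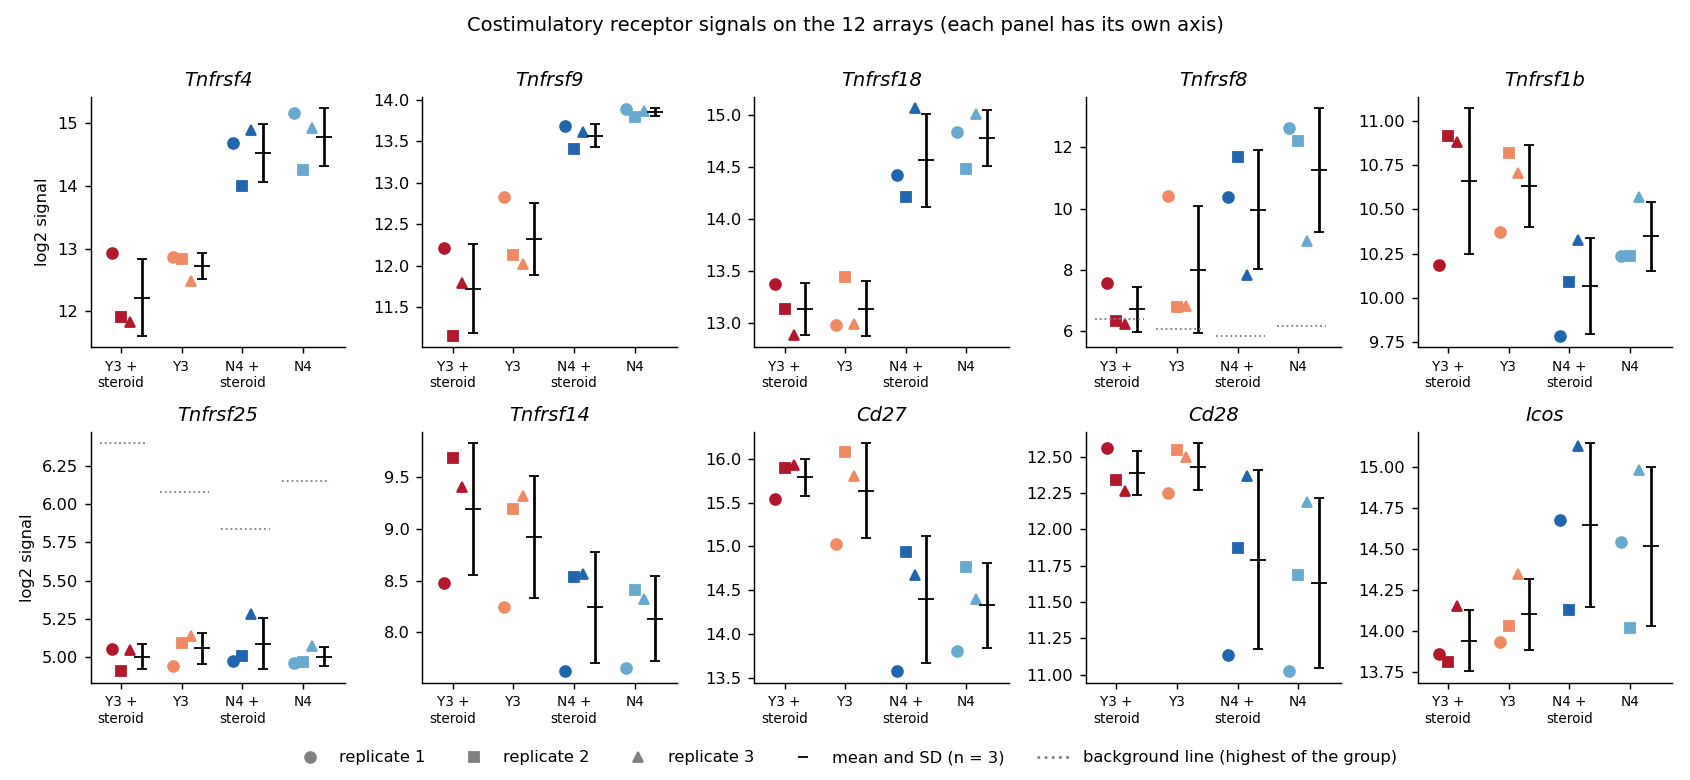
Log2 signal of each receptor on the 12 arrays, 3 per group, with the group mean and SD in black and symbols for the replicate number. Each panel has its own axis, and a dotted line marks the highest background line of each group where signals come near it. Tnfrsf4, Tnfrsf9 and Tnfrsf18 lie lower, and Cd27 higher, on all 6 Y3 arrays than on all 6 N4 arrays, and Tnfrsf25 stays below the background line.

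The first question was how the weaker peptide changed the receptors. Tnfrsf4 (OX40), Tnfrsf9 (4-1BB) and Tnfrsf18 (GITR), receptors that appear on stimulated T cells and promote their expansion and survival, fell in Y3-primed cells, and Cd27, the receptor for CD70, rose. Averaged over both corticosteroid conditions, Tnfrsf4 was 4.53-fold lower, Tnfrsf9 3.22-fold lower and Tnfrsf18 2.90-fold lower in Y3-primed cells than under N4, and Cd27 was 2.55-fold higher. Limma called these 4 of the 10 receptors (1 higher and 3 lower) in the mean Y3 minus N4 difference, where it called 3.27% of all genes and 6.92% of the 16862 genes above the background line on at least 3 arrays. The same 4 receptors did not overlap between the 6 Y3 and the 6 N4 arrays, which held for 3.26% of all genes and 6.52% of those above the line. With the replicate number as a block, 9 of the 10 passed (4 higher and 5 lower), against 12.7% of all genes and 26.4% of those above the line. The median difference of the 10 receptors was -0.29, beside -0.0039 over all genes.

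The arrays with and without corticosteroid of the same peptide and number deviated from their group means together (r between 0.650 and 0.815 in N4 and between 0.524 and 0.753 in Y3, across genes), so the 6 arrays of a peptide are not 6 independent samples. With these arrays averaged first, 3 values against 3, limma called 0 of the 10 receptors and 0 genes, although 9.36% of genes had an unadjusted p under 0.05. The adjusted p was then 0.245 for Tnfrsf4, Tnfrsf9 and Tnfrsf18 and 0.335 for Cd27. Averaged and with the replicate block, 4 receptors passed, against 0.750% of genes: Tnfrsf4 (limma, adjusted p = 0.0429), Tnfrsf9 (0.0429), Tnfrsf14 (0.0454) and Cd27 (0.0401), with Tnfrsf18 at 0.0611. Tnfrsf8 (0.115), Tnfrsf1b (0.167), Icos (0.1775) and Cd28 (0.264) did not pass in that fit, although they passed with the block on single arrays. The fits on single arrays, with or without the block, count those with and without corticosteroid as separate samples. Their p-values for the mean peptide difference can thus be too small.

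Tnfrsf4, known as OX40 and bound by the ligand Tnfsf4, had signals of 12.86, 12.83 and 12.48 in Y3-primed cells (replicates 1 to 3), against 15.16, 14.26 and 14.92 in N4-primed cells. With corticosteroid the signals were 12.92, 11.91 and 11.82 in Y3-primed cells, against 14.68, 14.00 and 14.89 in N4-primed cells. Every N4 array stood above every Y3 array. The mean Y3 minus N4 difference was -2.18 ± 0.24 (log2, limma SE, n = 6 arrays each from 3 replicate numbers, adjusted p = 0.0039). Tnfrsf4 was lower in Y3 in 6 of 6 pairs, which share those 3 numbers.

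Its chromosomal neighbour Tnfrsf18, known as GITR and bound by Tnfsf18, had 12.98, 13.44 and 12.99 in Y3-primed cells, against 14.84, 14.48 and 15.01 in N4-primed cells. With corticosteroid it had 13.38, 13.14 and 12.89 in Y3-primed cells, against 14.42, 14.21 and 15.07 in N4-primed cells. Here too every Y3 array was below every N4 array, and the means of the Y3 groups with and without corticosteroid were 13.13 ± 0.25 and 13.14 ± 0.26 (SD, n = 3). The mean peptide difference was -1.54 ± 0.17 (limma, adjusted p = 0.0038).

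Tnfrsf9, known as 4-1BB and a receptor used in chimeric receptor designs for its survival signal, had 12.82, 12.13 and 12.02 in Y3-primed cells, against 13.89, 13.80 and 13.86 in N4-primed cells. With corticosteroid it had 12.22, 11.15 and 11.80 in Y3-primed cells, against 13.68, 13.41 and 13.61 in N4-primed cells. The N4 arrays lay close together, with an SD of 0.05, whereas the Y3 arrays had an SD of 0.44. The mean peptide difference was -1.69 ± 0.19 (limma, adjusted p = 0.0039). Without overlap between the N4 groups either, it was the one receptor with 2 such steps in its order of levels.

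Tnfrsf8, known as CD30, had the most uneven signal. It was 10.39, 6.77 and 6.83 in Y3-primed cells, against 12.65, 12.20 and 8.95 in N4-primed cells. With corticosteroid it was 7.56, 6.34 and 6.24 in Y3-primed cells, against 10.37, 11.67 and 7.84 in N4-primed cells. Replicate 1 was the high Y3 array and replicate 3 the low N4 array in both conditions, and the groups overlapped without corticosteroid but not with it. Its mean peptide difference of -3.26 ± 0.91 did not pass without the block (limma, adjusted p = 0.0902) and passed with it (0.0074), lower in 6 of 6 pairs. Without the block it passed when Y3 replicate 1 was left out (0.0398). Between 2.18% and 34.1% of negative control probes were brighter than Tnfrsf8 on the Y3 arrays without corticosteroid, against 0.938% to 7.58% on the N4 arrays without it, so the low signals lie within the range of the negative controls and the fold is uncertain.

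Cd27, which binds CD70 and supports the survival of primed T cells, went the other way. It had 15.03, 16.07 and 15.80 in Y3-primed cells, against 13.81, 14.77 and 14.40 in N4-primed cells. With corticosteroid it had 15.54, 15.89 and 15.93 in Y3-primed cells, against 13.57, 14.94 and 14.68 in N4-primed cells. All 6 Y3 arrays were above all 6 N4 arrays, by 1.35 ± 0.27 on average (limma, adjusted p = 0.0288; higher in 6 of 6 pairs). Without the block its limma call was lost in 6 of 12 fits that left out 1 array. These were N4 replicates 1 (adjusted p = 0.0640) and 3 (0.0551), Y3 replicates 2 (0.0766) and 3 (0.0794), and, with corticosteroid, Y3 replicates 2 (0.0837) and 3 (0.0778). With the block it passed in 12 of 12 such fits.

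Tnfrsf14, known as HVEM, binds LIGHT (Tnfsf14) and also the inhibitory receptors BTLA and CD160. It had 8.24, 9.20 and 9.32 in Y3-primed cells, against 7.66, 8.41 and 8.33 in N4-primed cells. With corticosteroid it had 8.47, 9.69 and 9.41 in Y3-primed cells, against 7.62, 8.53 and 8.57 in N4-primed cells. Replicate 1 was the lowest array in all 4 groups, so the groups overlapped while each pair was higher in Y3. The mean difference of 0.87 ± 0.28 did not pass without the block (limma, adjusted p = 0.145), and with it the adjusted p was 2.58e-04. Between 4.79% and 8.98% of negative controls were brighter than Tnfrsf14 on Y3 arrays, against 7.68% to 14.1% on N4 arrays. Only on replicate 2 of Y3 plus corticosteroid did Tnfrsf14 exceed their 95th percentile, so its signals lie within their range and the fold is uncertain. The median of the negative controls was higher on the Y3 array of every pair too, and its part in this difference was not tested.

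Cd28, the receptor for CD80 and CD86, had 12.25, 12.54 and 12.50 in Y3-primed cells, against 11.02, 11.69 and 12.19 in N4-primed cells, which did not overlap. Under corticosteroid Cd28 had 12.56, 12.34 and 12.27 in Y3-primed cells, against 11.14, 11.87 and 12.36 in N4-primed cells, which did. The N4 arrays spread over more than the Y3 arrays, with an SD of 0.58 in N4 against 0.16 in Y3. The mean difference was 0.70 ± 0.23, higher in 5 of 6 pairs (limma, adjusted p = 0.145, and 0.0355 with the block). With the block, that call held in 4 of 12 fits that left out 1 array, namely those without N4 replicate 3 (adjusted p = 0.0313), N4 plus corticosteroid replicate 3 (0.0292), Y3 plus corticosteroid replicate 1 (0.0493) or replicate 3 (0.0135), and the others gave 0.0527 to 0.0934.

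Icos, the CD28 relative that is induced on stimulated T cells and bound by ICOS ligand, differed from Cd28 in direction. Its signals were 13.93, 14.03 and 14.35 in Y3-primed cells, against 14.54, 14.02 and 14.98 in N4-primed cells. With corticosteroid they were 13.86, 13.81 and 14.15 in Y3-primed cells, against 14.68, 14.13 and 15.13 in N4-primed cells. The mean difference of -0.56 ± 0.20 was lower in 5 of 6 pairs (limma, adjusted p = 0.178, and 0.0091 with the block).

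Tnfrsf1b, known as TNFR2 and bound by TNF and lymphotoxin alpha, had 10.38, 10.82 and 10.70 in Y3-primed cells, against 10.24, 10.24 and 10.57 in N4-primed cells. With corticosteroid it had 10.18, 10.91 and 10.88 in Y3-primed cells, against 9.79, 10.09 and 10.33 in N4-primed cells. The mean difference was 0.44 ± 0.15, higher in 6 of 6 pairs, in groups that overlapped (limma, adjusted p = 0.174, and 0.0129 with the block). Without the block it passed when replicate 1 of Y3 plus corticosteroid was left out (0.0452). Tnfrsf25, known as DR3, stayed between 4.91 and 5.28 on all 12 arrays, below the background line of each, and allows no statement on its level.

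In order of level, the 4 conditions fell the same way for Tnfrsf4, Tnfrsf9, Tnfrsf18 and Tnfrsf8, lowest in Y3 with corticosteroid, then Y3, then N4 with corticosteroid, and highest in N4. For Tnfrsf18 the Y3 groups differed by only 0.0035, and their order turned round with quantile scaling and when some single arrays were left out. Tnfrsf4, for example, averaged 12.22 ± 0.61, 12.72 ± 0.21, 14.52 ± 0.47 and 14.78 ± 0.47 in that order (SD, n = 3 each). For Tnfrsf14 and Cd27 the order was the opposite, and Cd27 averaged 15.79 ± 0.22 in Y3 with corticosteroid, 15.64 ± 0.54 in Y3, 14.39 ± 0.72 in N4 with corticosteroid and 14.32 ± 0.48 in N4. For Cd28 and Tnfrsf1b both Y3 groups also stood above both N4 groups, and for Icos both N4 groups above both Y3 groups, with the corticosteroid conditions ordered otherwise. Between neighbours in these orders, arrays did not overlap at the step between the peptides for Tnfrsf4, Tnfrsf9, Tnfrsf18 and Cd27, nor between N4 with and without corticosteroid for Tnfrsf9. At all other steps of the 9 receptors above background the neighbours overlapped.

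**Figure D2:**
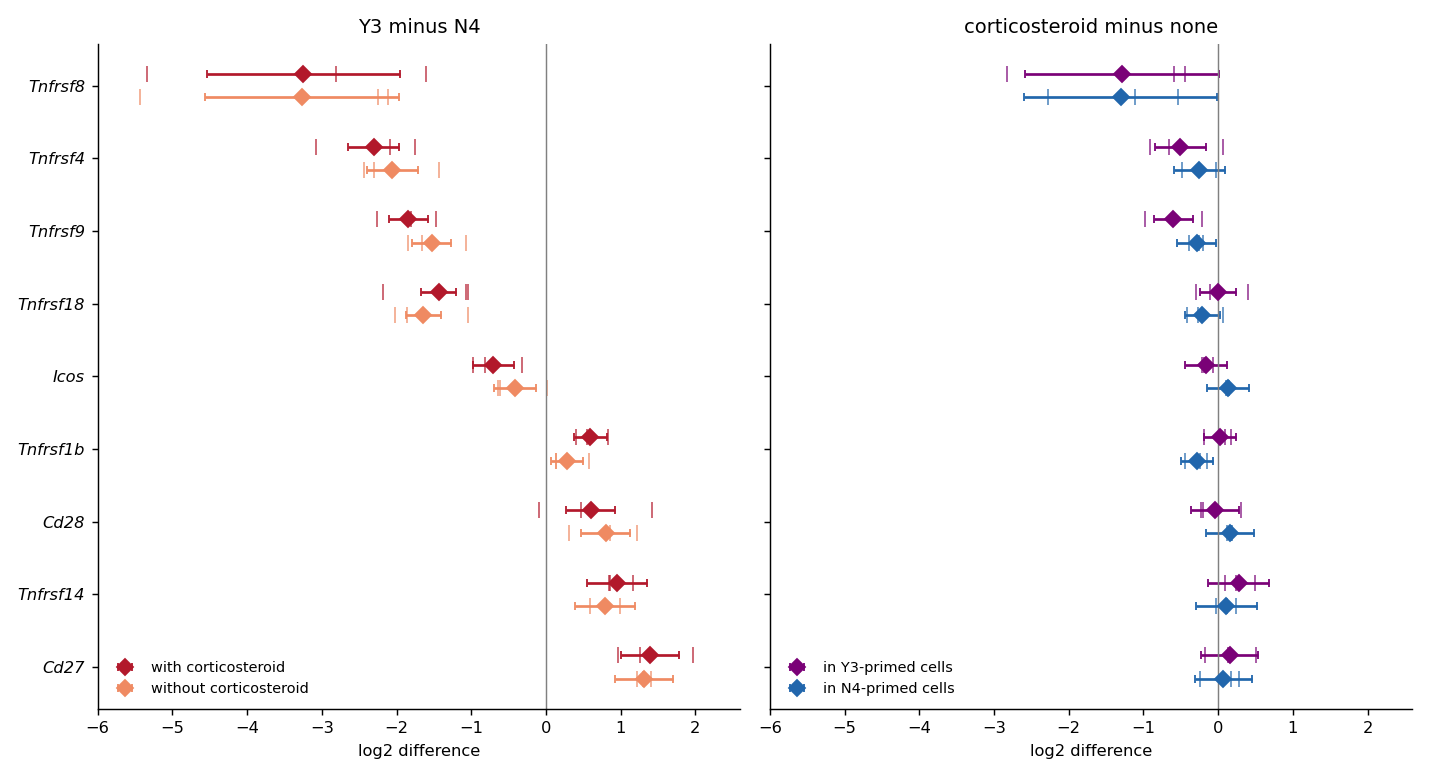
Log2 differences of the 9 receptors above background: Y3 minus N4 on the left, with and without corticosteroid, and corticosteroid minus none on the right, in Y3-primed and N4-primed cells. Diamonds and bars are limma estimates with SE (n = 3 arrays per group), and ticks are the differences of the 3 pairs with the same replicate number. The peptide differences run from Tnfrsf8 (-3.27 without corticosteroid) to Cd27 (1.39 with it), whereas the corticosteroid bars of most receptors reach 0.

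Taken without corticosteroid alone, Y3-primed cells again had lower Tnfrsf4, Tnfrsf9 and Tnfrsf18 and higher Cd27 signals, but fewer receptors were called. Limma called 0 of the 10, and 12 genes in all, or 0.0304% (0.0652% of those above the background line). Tnfrsf18 came nearest (adjusted p = 0.0630) and passed without N4 plus corticosteroid replicate 3 (0.0401). At an unadjusted p under 0.05 there were 6 receptors, against 8.56% of all genes. With the replicate block limma called 5 of the 10, against 2.94% of all genes and 6.48% of those above the line: Tnfrsf4 (-2.05 ± 0.34 log2, limma SE without the block; adjusted p = 0.0057 with it), Tnfrsf9 (-1.53 ± 0.26; 0.0053), Tnfrsf18 (-1.64 ± 0.24; 0.0115), Tnfrsf14 (0.79 ± 0.40; 0.0078) and Cd27 (1.31 ± 0.38; 0.0054). Cd28, at 0.80 ± 0.32, had an adjusted p of 0.150 with the block. The arrays of 5 receptors did not overlap between Y3 and N4 (Cd27 and Cd28 higher, Tnfrsf4, Tnfrsf9 and Tnfrsf18 lower), against 11.3% of all genes and 14.5% of those above the line. All 3 pairs had 1 direction for 8 receptors, against 30.6% of all genes. With the block, the limma call of Tnfrsf18 was lost without N4 replicates 1 (adjusted p = 0.0525) and 3 (0.0513) and Y3 replicates 1 (0.0515) and 3 (0.0654), and that of Tnfrsf14 without N4 replicate 2 (0.0512).

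Under corticosteroid, the same comparison called 3 of the 10 receptors, all lower in Y3-primed cells, against 0.256% of all genes and 0.569% of those above the background line: Tnfrsf4 (-2.31 ± 0.34, limma, adjusted p = 0.0405), Tnfrsf9 (-1.84 ± 0.26, 0.0354) and Tnfrsf18 (-1.43 ± 0.24, 0.0483). With the replicate block 7 passed, against 6.53% of all genes and 14.2% of those above the line, the added ones being Tnfrsf14 (0.95 ± 0.40, adjusted p = 0.0025), Cd27 (1.39 ± 0.38, 0.0028), Tnfrsf1b (0.59 ± 0.22, 0.0278) and Icos (-0.70 ± 0.28, 0.0269). Tnfrsf8, at -3.25 ± 1.29, had 0.0555 with the block and passed when Y3 replicate 2 (0.0321) was dropped, or replicate 3 of Y3 plus corticosteroid (0.0389). The arrays of 5 receptors did not overlap between the groups (Cd27 higher, Tnfrsf4, Tnfrsf9, Tnfrsf18 and Tnfrsf8 lower), against 16.5% of all genes and 21.8% of those above the line. All 3 pairs had 1 direction for 8 receptors here too, against 36.0% of all genes. Without the block these calls depended on single arrays. When 1 of the 12 was left out, Tnfrsf4 passed in 3 fits (N4 replicate 1, N4 plus corticosteroid replicate 2 or Y3 plus corticosteroid replicate 1 left out), with a limma adjusted p of up to 0.227 in the others. Tnfrsf9 passed in 3 (N4 replicate 1, or replicate 1 of either Y3 group, left out), with up to 0.144, and Tnfrsf18 in 1 (replicate 1 of Y3 plus corticosteroid left out), with up to 0.247. With the block Tnfrsf4, Tnfrsf9, Tnfrsf18, Tnfrsf14 and Cd27 passed in all 12 of these fits. Tnfrsf1b passed in 7 and was lost without N4 plus corticosteroid replicates 1 (0.0936), 2 (0.115) and 3 (0.0693) and Y3 plus corticosteroid replicates 2 (0.135) and 3 (0.0729). Icos passed in 7 and was lost without N4 plus corticosteroid replicates 1 (0.107) and 3 (0.108) and Y3 plus corticosteroid replicates 1 (0.0928), 2 (0.0513) and 3 (0.0820).

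The CD8 T cell markers moved with the peptide too. With arrays averaged over corticosteroid first, limma called 0 genes for the mean peptide difference without the block and 0.750% with it. On single arrays, beside the calls in these marker lists, it called 3.27% of all genes without the block and 12.7% with it. Above the background line, where all 8 CD8 T cell markers lay, the shares were 6.92% and 26.4%. Of 8, 7 had higher signals in Y3-primed cells (median difference 0.48, beside -0.0039 over all genes), 2 of them passed without the block, Cd3e (0.41 ± 0.09, limma, adjusted p = 0.0371) and Cd3d (0.60 ± 0.14, 0.0487), and 6 passed with it, the others being Cd8b1, Cd8a, Cd3g and Cd5. Their summed signal lay between 18.69 and 19.17 (log2) in Y3 cells with corticosteroid and between 18.54 and 19.26 without, against 18.21 to 18.56 and 18.33 to 18.57 in N4 cells. Of 7 markers of CD4 and regulatory T cells, cells that also carry OX40 and GITR, 5 exceeded the background line on at least 3 arrays, whereas Foxp3 was below it on all arrays and Cd4 exceeded it on 1. Among them Ikzf4 was lower in Y3-primed cells (-1.02 ± 0.19, limma, adjusted p = 0.0233), and with the block Lrrc32 was lower (-1.40 ± 0.81, 0.0237) and Nrp1 higher (0.47 ± 0.46, 0.0499). The list's summed signal lay between 9.30 and 10.91 in Y3 cells with corticosteroid and between 9.65 and 10.5 without, against 9.53 to 11.15 and 9.74 to 11.16 in N4 cells. Of 10 B cell markers, Cd79b, above the line on all 12 arrays, was higher in Y3-primed cells with the block (0.62 ± 0.24, limma, adjusted p = 8.21e-04), with means of 7.33 with corticosteroid and 7.43 without in Y3 cells, against 6.78 and 6.75 in N4 cells. With the block Ebf1 of B cells (-0.61 ± 0.24, limma, adjusted p = 0.0453), Klrb1c of NK cells (0.68 ± 0.18, 0.0145) and Itgax of dendritic cells (0.24 ± 0.11, 0.0499) also passed, each above the line on at most 2 arrays. The part of these lists in the receptor differences was not tested. In RNA of whole cultures, fewer cells that express a receptor and less receptor RNA per cell cannot be told apart.

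The second question was whether corticosteroid changed the receptors. In Y3-primed cells and in N4-primed cells alike, limma called 0 of the 10 receptors and 0 genes (3.19% of genes in Y3 and 1.90% in N4 had an unadjusted p under 0.05), and with the replicate block again 0 receptors, with 0 genes in Y3 and 1 (0.00253%) in N4. Averaged over the peptides, 0 receptors passed in either fit, against 0 genes without the block (3.28% unadjusted) and 0.0127% with it. At an unadjusted p under 0.05 with the block there were 2 receptors in Y3, against 2649 of all 39463 genes. In N4 there were 0, against 1312 genes, and for the mean there were 2, against 2723. The fit without the block leaves room for changes. Its 95% interval of the mean corticosteroid difference ran from -0.91 to 0.15 for Tnfrsf4 and from -0.48 to 0.26 for Tnfrsf18. It ran from -0.49 to 0.71 for Cd27 and from -0.45 to 0.57 for Cd28 (log2). With the block the SEs of these differences were 0.18, 0.17, 0.11 and 0.18, against 0.24, 0.17, 0.27 and 0.23 without it. No intervals were taken with the block.

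Tnfrsf9 came nearest to a difference. Corticosteroid minus none was -0.60, -0.98 and -0.22 in the 3 pairs of Y3-primed cells and -0.21, -0.39 and -0.26 in those of N4-primed cells, lower in 6 of 6. The estimates were -0.60 ± 0.26 in Y3 and -0.28 ± 0.26 in N4, with a mean of -0.44 ± 0.19 (limma, unadjusted p = 0.0376, adjusted p = 1.00, and 0.451 with the block). With the block the unadjusted limma p was 0.0107 in Y3, 0.163 in N4 and 0.0086 for the mean. The N4 arrays with corticosteroid were all below those without, and Tnfrsf9 was the only one of the 10 receptors whose arrays did not overlap in this comparison, against 1972 of all 39463 genes and 2.01% of those above the background line. No receptor was free of overlap in Y3-primed cells, against 8.43% of genes.

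Tnfrsf8 was also lower with corticosteroid in 6 of 6 pairs, with differences of -2.83, -0.44 and -0.59 in Y3-primed cells and -2.28, -0.53 and -1.11 in N4-primed cells. On the Y3 arrays with corticosteroid 17.6% to 45.4% of negative control probes were brighter than Tnfrsf8, against 1.53% to 15.9% on the N4 arrays with it. On Y3 plus corticosteroid replicate 3 Tnfrsf8 was below the background line, so the size of its differences is uncertain. Its mean difference, -1.30 ± 0.91, had an interval of -3.33 to 0.74 (limma, adjusted p = 1.00). Tnfrsf4 was lower in 5 of 6 pairs, with a mean difference of -0.38 ± 0.24. Tnfrsf1b was lower in 3 of 3 pairs of N4-primed cells (-0.28 ± 0.22) and in 1 of 3 of Y3-primed cells (0.03 ± 0.22). Tnfrsf14 was higher in 3 of 3 pairs of Y3-primed cells (0.27 ± 0.40) and in 2 of 3 of N4-primed cells (0.11 ± 0.40). With the block its unadjusted limma p was 0.0302 in Y3 and 0.0312 for the mean (adjusted p = 0.6625 and 0.640). All 3 pairs had 1 direction for 4 receptors in Y3-primed cells, against 32.5% of all genes, and for 7 in N4-primed cells, against 27.8%. Tnfrsf25, which was below background, is among the 7. Under each peptide some of these receptors were higher and some lower with corticosteroid. These shares are over all genes, many of them below the background line, and none was taken for genes above it.

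Icos took opposite directions, with pair differences of -0.08, -0.22 and -0.19 in Y3-primed cells and 0.13, 0.11 and 0.14 in N4-primed cells. The corticosteroid effect in Y3 minus that in N4 was -0.29 ± 0.39 (limma, adjusted p = 1.00), with an interval of -1.16 to 0.58. For the 10 receptors this difference of effects ran from -0.32 (Tnfrsf9) to 0.31 (Tnfrsf1b), and limma called 0 of them and 0 genes (1.71% at an unadjusted p under 0.05).

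The ligands and partners of these receptors were looked at in lists written from textbook knowledge. For the mean peptide difference in each list, the shares to set beside the calls are 3.27% of all genes without the block and 12.7% with it. Of genes above the background line they are 6.92% and 26.4%. These calls count arrays with and without corticosteroid as separate samples. With those arrays averaged first, 0 genes passed without the block and 0.750% of all genes with it. Which genes of the lists are among the latter was not looked at. Of 12 ligands, 9 exceeded the background line on at least 3 arrays, and Cd70, Tnfsf15 and Tnfsf18 did so on none, so that their differences have no readable direction. The differences of 11 ligands, these 3 included, were below 0, with a median mean-peptide difference of -0.27, beside -0.0039 over all genes. Without the block 1 passed, Cd86, a ligand of CD28, which was higher by 0.92 ± 0.16 (limma, adjusted p = 0.0177). Its signals were 5.62, 6.28 and 6.39 in Y3-primed cells, against 5.21, 5.39 and 5.47 in N4-primed cells, and with corticosteroid 6.03, 6.63 and 6.69 in Y3-primed cells, against 5.16, 5.38 and 5.55 in N4-primed cells. They exceeded the background line on only 5 of the 12 arrays. The median of the negative controls was higher on the Y3 array of every pair too, and its part in this difference was not tested. With the block Lta, lymphotoxin alpha, a ligand of Tnfrsf1b, also passed at -2.45 ± 0.67 (adjusted p = 0.0015), with 9.79, 8.58 and 9.80 in Y3-primed cells against 13.30, 10.53 and 11.998 in N4-primed cells. In the presence of corticosteroid Lta had 8.56, 7.18 and 8.94 in Y3-primed cells, against 12.47, 8.70 and 10.57 in N4-primed cells, which overlapped. Icosl, the ligand of Icos, also passed with the block, at -0.56 ± 0.31 (0.0052).

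Both inhibitory receptors that bind Tnfrsf14 were higher in Y3-primed cells with the block, Cd160 by 1.10 ± 0.41 (limma, adjusted p = 0.0020) and Btla by 0.61 ± 0.28 (0.0330), and without it neither passed. Cd160 had 11.54, 12.28 and 10.94 in Y3-primed cells, against 10.03, 11.45 and 10.04 in N4-primed cells. In the presence of corticosteroid Cd160 had 12.27, 13.13 and 12.29 in Y3-primed cells, against 10.74, 12.69 and 10.90 in N4-primed cells, and both comparisons overlapped. All 4 inhibitory partners had differences above 0, with a median of 0.54. Ctla4, the inhibitory relative of CD28 that lies between Cd28 and Icos, differed by 0.39 ± 0.32 and did not pass (limma, adjusted p = 0.640, and 0.218 with the block).

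Among 16 other TNF receptors none passed without the block. With it 2 were higher in Y3-primed cells, a share near the 12.7% of all genes called. These were Tnfrsf1a, the death-domain TNF receptor (0.54 ± 0.21, limma, adjusted p = 0.0076), and Relt (0.25 ± 0.07, 0.0372). Tnfrsf26, named after its values were seen, had the largest difference of that list, 1.45 ± 0.83, and did not pass (adjusted p = 0.450, and 0.0620 with the block). Of 10 TRAF adaptors and associated proteins, Traf4 was the one that passed, with the block only, at -1.11 ± 0.31 (0.0026), and the list's median was 0.02. In the NF-kappaB pathway 1 of 13 passed without the block, Nfkbib, an inhibitor of NF-kappaB, at -0.73 ± 0.17 (0.0466), and with it Ikbkb, a kinase that acts on such inhibitors, was also called at 0.51 ± 0.15 (0.0027). The list's median was -0.07.

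Of 13 genes of CD28 and ICOS signalling none passed without the block. With it 2 were higher in Y3-primed cells, in a list whose median was 0.12. These were Prkcq, the protein kinase C of the T cell synapse (0.50 ± 0.12, limma, adjusted p = 0.0026), and the adaptor Grap2 (0.42 ± 0.25, 0.0345). All 13 were above the background line, where 26.4% of genes were called with the block. Of 4 survival targets, Bcl2l1, which encodes BCL-XL, was lower in Y3-primed cells by 0.89 ± 0.16 on the log2 scale (0.0221). With the block Bcl2 was also lower (-1.68 ± 0.41, 5.29e-04) and Mcl1 was higher (0.46 ± 0.15, 0.0394). Bcl2 had 11.69, 9.64 and 9.71 in Y3-primed cells, against 12.89, 12.20 and 12.02 in N4-primed cells, which did not overlap. In the presence of corticosteroid Bcl2 had 12.0042, 10.42 and 10.72 in Y3-primed cells, against 12.96, 12.22 and 11.95 in N4-primed cells, which did.

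**Figure D3:**
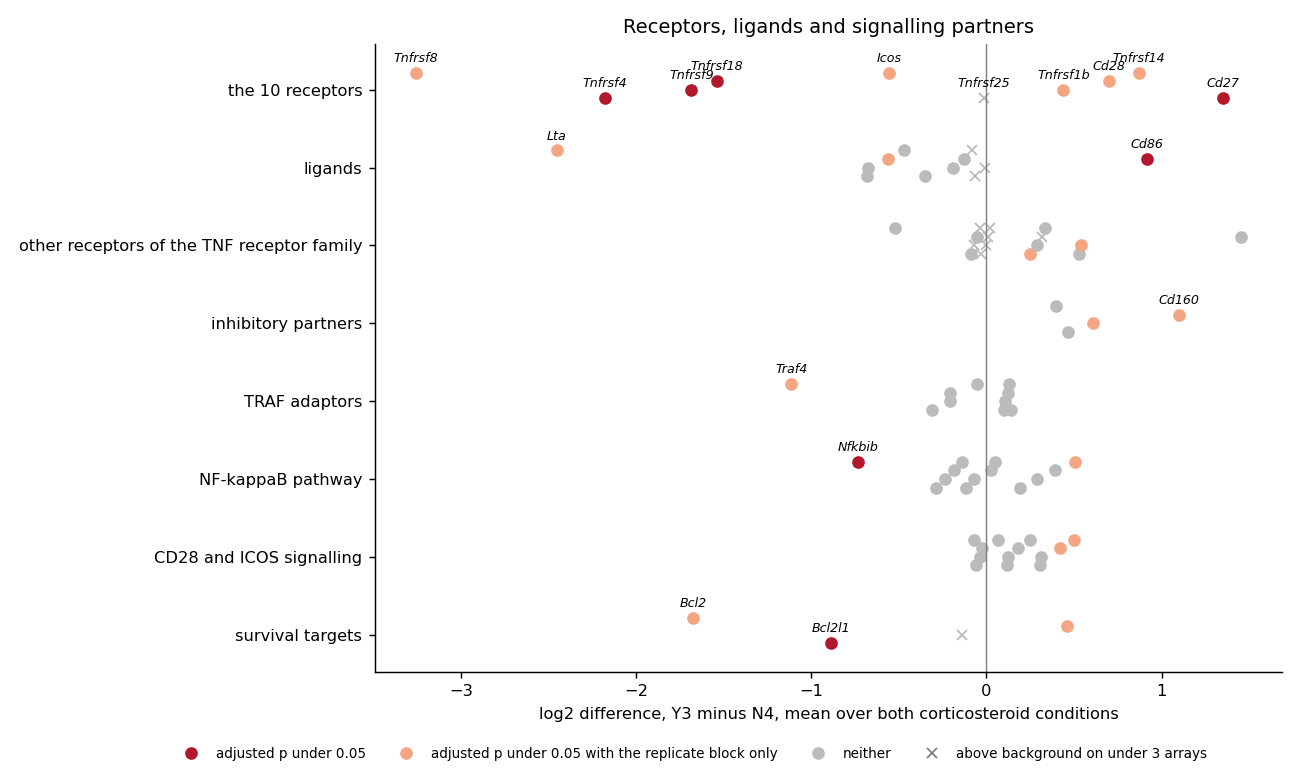
Log2 difference between Y3-primed and N4-primed cells, averaged over both corticosteroid conditions, for the 10 receptors and 7 lists of ligands and signalling partners, with 1 symbol per gene. Colour gives the limma call without or with the replicate block, crosses mark genes above the background line on under 3 arrays, and vertical offsets within a row have no meaning. Of the 12 ligands 11 lie below 0, 3 of them crosses, and all 4 inhibitory partners above it, whereas the TRAF and NF-kappaB lists lie around 0.

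Under corticosteroid, averaged over the peptides, no gene of these lists passed with or without the block. In each list the gene with the largest difference among those above background was Lta among ligands (-1.26 ± 0.67), Tnfrsf10b among other TNF receptors (-0.59 ± 0.29), Pdcd1, which encodes the checkpoint receptor PD-1, among inhibitory partners (1.16 ± 0.42), Birc3 among TRAF adaptors (-0.28 ± 0.23), Nfkbib in the NF-kappaB pathway (-0.30 ± 0.17), Malt1 in CD28 and ICOS signalling (0.54 ± 0.30) and Bcl2 among survival targets (0.35 ± 0.41). Pdcd1 had 15.64, 14.66 and 15.55 in Y3-primed cells with corticosteroid, against 14.996, 13.42 and 13.94 without. In N4-primed cells it had 15.36, 14.21 and 14.86 with corticosteroid, against 14.96, 12.75 and 13.27 without, higher in every pair (limma, unadjusted p = 0.0187, adjusted p = 1.00, and 0.104 with the block).

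For each receptor the genes most alike over the 12 arrays were sought by Pearson's r of log2 signals, given as a description: the arrays fall apart by peptide and share replicate numbers, and r reflects both. Traf3ip3 (r = 0.992) and Ikbke (0.991) followed Tnfrsf14 most closely. Dennd1c (0.988) and Clec2d (0.985) followed Cd27, and Tmem243 (0.987) and Tmem71 (0.981) followed Cd28. Lonp1 (0.985) and Spg21 (0.979) were most like Tnfrsf9, and Orc3 (0.982) and Psmc6 (0.978) most like Tnfrsf4. Tes (0.976) was among the genes most like Tnfrsf18. The nearest genes were Park7 (0.967) and Pdk3 (0.959) for Tnfrsf8, Twsg1 (0.977) and Ddx47 (0.962) for Icos, and Il2rg (0.9496) and Stap1 (0.936) for Tnfrsf1b. Gm5129 (0.928) and Rpl14 (0.913) were nearest to Tnfrsf25, which stayed below background.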

How the data were processed

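Gene expression of 12 samples was measured on Affymetrix MTA arrays with biotin-labelled DNA, per the labels' protocols. The deposited values are linear signals per gene-level cluster, made by the authors with SST-RMA, per the file headers (RMA, per the submitters' processing notes). Log2 values were taken here from the deposited signals, with no pseudocount or further normalization. The array's genome build is not given in the sources used here. Columns coded N, NS, Y and YS were matched to samples through a second deposited table of identical values in 12 of 12 columns. The brightest cluster stood for each symbol.

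Genes (39463) were fitted with limma 3.58.1 in R 4.3.3, 1 mean per group, with 8 residual degrees of freedom, and adjusted over all genes by Benjamini-Hochberg at 0.05, without a block and with the replicate number as a block (6 degrees of freedom). The numbers were used as a block because same-numbered arrays deviated together, most clearly within a peptide (r = 0.524 to 0.815). Across the peptides same numbers had r from 0.114 to 0.673, and different numbers reached 0.422. Without corticosteroid, Y3 replicate 2 deviated more with N4 replicate 3 (0.422) than with N4 replicate 2 (0.114). Pairing across the peptides is thus less sure, and so are peptide calls made only with the block. The errors beside differences are limma SEs without the block. Scripts were checked on simulated data with independent arrays, which does not test the p-values where same-numbered arrays deviate together. The number of arrays limits the precision. Tables and figures were made in Python 3.11.15 (numpy 2.4.6, pandas 2.3.3, matplotlib 3.10.9).

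The 10 receptors and all lists were chosen with earlier results of these data known. All 10 are named, as are genes of the 7 ligand and signalling lists that passed in either fit (at most 4 per list), otherwise the one with the largest difference in a list, and the 2 genes most alike to each receptor, of which 1 is not reported here. Scaling, level filter, array weights, the arrays compared and single arrays were varied, and averaging over corticosteroid was added after seeing the data.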

Additional observations from a re-analysis of the deposited data

Results flagged for a closer look

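The corticosteroid effect on Icos was picked out by a rule, opposite signs under the 2 peptides in every pair. Icos was lower in 3 of 3 pairs of Y3-primed cells and higher in 3 of 3 pairs of N4-primed cells. How many of all genes meet this rule was not counted. The effect in Y3 minus that in N4 was -0.29 ± 0.39 (log2, limma SE, n = 3 arrays per group). The interaction term did not pass (limma, adjusted p = 1.00 without and with the replicate block), so the difference was not shown by that test.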

How the results depend on the processing

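With the replicate block, which pairs same-numbered arrays, limma called 4993 genes and 9 receptors for the mean peptide difference, 1160 and 5 for Y3 against N4 without corticosteroid, 2576 and 7 with it, 5 genes for the mean corticosteroid effect and 1 for corticosteroid in N4. With array weights these were 3726 and 7, 78 and 2, 1562 and 5, and 4 genes for the mean corticosteroid effect. With arrays averaged over corticosteroid, an alternative chosen after seeing the data, limma called 0 genes and 0 receptors for the mean peptide difference, and 296 genes with the block added. Fitting only the groups compared left 0 genes without corticosteroid and 0 genes and 0 receptors with it. The level filter gave 22 genes and 1 receptor without corticosteroid (Tnfrsf18, adjusted p = 0.0434), median centring gave 62 genes with it, and quantile scaling moved Tnfrsf18 with it to an adjusted p of 0.0693. Other settings did not move these counts by more than 1.5 times, and the cause of each change was not tested. Leaving out 1 array at a time without the block, the mean peptide difference gave 3 to 5 receptors and 322 to 1419 genes, the comparison without corticosteroid 0 to 1 and 0 to 26, and that with it 0 to 3 and 0 to 205. With the block these ranges were 8 to 9 and 3504 to 5102, 4 to 5 and 243 to 1341, and 5 to 8 and 847 to 2705. For corticosteroid they were 0 genes without the block and, with it, 0 to 1 in N4 and 0 to 7 for the mean. Corticosteroid differences that changed sign passed no test. Tnfrsf18 in Y3 was 0.0178 with quantile scaling and the Icos mean 0.0017 with array weights. When 1 array was left out, differences in N4 ran from -0.5220 to 0.0076 for Tnfrsf4, -0.1272 to 0.4197 for Tnfrsf14, -0.2006 to 0.4811 for Cd27, -0.1452 to 0.4860 for Cd28 and -0.1201 to 0.3861 for Icos. In Y3 they ran from -0.1653 to 0.2563 for Tnfrsf18, -0.1009 to 0.2659 for Tnfrsf1b, -0.0676 to 0.6309 for Tnfrsf14, -0.1496 to 0.3715 for Cd27 and -0.3672 to 0.2187 for Cd28. The means ran from -0.2459 to 0.0230 for Tnfrsf18, -0.0399 to 0.3169 for Cd27, -0.1039 to 0.2221 for Cd28 and -0.1411 to 0.1120 for Icos. No peptide difference of a receptor above background changed sign under these settings, and that of Tnfrsf8 averaged over corticosteroid grew to -4.37 with array weights.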
